A study of Saccharomyces cerevisiae with 36 samples.

Results

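The genes described here encode proteins of the mitochondrial ribosome of *Saccharomyces cerevisiae*. They were chosen by name, as every gene of the count table whose first listed name is MRPL, MRPS, MRP or RSM followed by digits. The rule took 65 of 5697 genes. The table gives the name MRPL31 to 2 genes, and 1 of them (YKL138C-A) is HSK3, a kinetochore gene, in the RefSeq annotation of build R64, so 64 genes remained. They comprise 33 MRPL genes, taken by name as large subunit, 20 genes taken by name as small subunit (9 MRPS and 11 RSM) and 11 genes named MRP. Of the 11, MRP7, MRP20 and MRP49 belong to the large subunit and MRP1, MRP2, MRP4, MRP13, MRP17, MRP21 and MRP51 to the small one. MRP8 was first taken for a mitochondrial ribosomal protein and has no known place in either subunit. MRP10 and MRPL15 stand in the table only under systematic names, so the rule did not take them.

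The mitochondrial ribosome translates the few proteins encoded in mitochondrial DNA, most of them core subunits of the respiratory chain and of ATP synthase. Nearly all of its proteins are encoded in the nucleus, made in the cytosol and imported, and many descend from bacterial ribosomal proteins while others exist only in mitochondria. In yeast, the RNA-binding protein Puf3 binds the 3′ untranslated regions of many mRNAs for mitochondrial proteins, at a motif written UGUANAUA in RNA.

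The study asked how budding yeast chooses between sugars in mixtures that hold palatinose, a disaccharide of glucose and fructose, and perturbed the galactose pathway to do so. The *gal80Δ* strain lacks Gal80, the protein that keeps the activator Gal4 inactive without galactose, and the wild-type is the prototrophic FY4 strain in which the deletion was made. Both were grown in minimal medium with 0.1% fructose plus 0.9% palatinose (fructose-palatinose) or with 0.1% fructose alone, after a pyruvate preculture. Cells were taken in mid-log phase and 10 and 16 hours later (+10h, +16h), which gives 12 groups of 3 biological replicates (A, B and C) and 36 libraries of 3′-end RNA sequencing. A read then marks the 3′ end of an mRNA, so a level does not grow with gene length.

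The 36 libraries held 6020770 to 11785148 gene counts. GAL80 lay at 7.23 to 16.2 CPM (counts per 1000000 counts of a library, scaled by edgeR's TMM factors) in the 18 *gal80Δ* libraries, against 46.4 to 97.9 CPM in the 18 wild-type libraries, so every library fitted its strain label. Levels below are in the same unit. The root mean square deviation of a library's log2 levels from its group mean, over all genes tested, had a median of 0.222. It was 0.479 in wild-type fructose +10h B, 0.378 in wild-type fructose-palatinose mid-log C and 0.367 in wild-type fructose mid-log A. Several results that rest on these libraries are given with and without them, and the others only with them.

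Nearly all of these genes shared a short motif after the stop codon. In the 200 bases downstream of the stop codon (R64, sense strand), the letters TGTANATA occurred in 62 of 64 genes (96.9%), in all 33 MRPL genes, 19 of the 20 MRPS and RSM genes and 10 of the 11 MRP genes. Over all genes with such a window the share was 14.8% (819 of 5551). On the opposite strand of the same windows the letters occurred in 12 of the 64 genes (18.8%) and in 13.5% of all genes. Only MRP8 and RSM22 lacked them. The sites of 8 genes named below are printed here, with the motif in capitals, 5′ to 3′ on the coding strand. They show the motif in its surroundings in genes that fell and in genes that did not. The search fixes all of its letters but the fifth.
RSM26: ttatatacTGTAAATAgttttatt
MRPL7: attcgtcaTGTAAATAtataaact
MRPL40: attcgaccTGTATATAtgaaagca
MRPS18: tatattcgTGTAAATAattcgatt
MRP1: gtagtctcTGTAAATAtataaagt
MRPL49: tagggataTGTACATAtacgcata
MRPS16: gtatatgtTGTATATAtgttttac
MRPL51: attatactTGTATATAtaatttgg

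These stretches lie at chrX:619114-619137 (RSM26), chrIV:937567-937590 (MRPL7), chrXVI:224136-224159 (MRPL40), chrXIV:58863-58886 (MRPS18), chrIV:1170186-1170209 (MRP1), chrX:246980-247003 (MRPL49) and chrXVI:730253-730276 (MRPL51) on the plus strand, and at chrXVI:528884-528907 (MRPS16) on the minus strand. All lie downstream of the coding sequence, with the motif 88 bases after the stop codon in RSM26, 82 in MRPL7, 108 in MRPL40, 63 in MRPS18, 51 in MRP1, 13 in MRPL49, 86 in MRPS16 and 48 in MRPL51. Over the 62 genes, the first motif began at a median of 50.5 bases after the stop codon (8 to 139). A single motif was found in 49 genes, 12 held 2 and 1 held 3. A C at the second base before the motif (CNTGTANATA), as in MRPL7, MRPL40, MRPS18 and MRPL51 above, stood in 50 of the 64 genes (78.1%), against 4.45% of all genes. Among genes that had the motif at all, the C was present in 80.6% of these genes and in 30.2% of all genes.

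**Figure D1:**
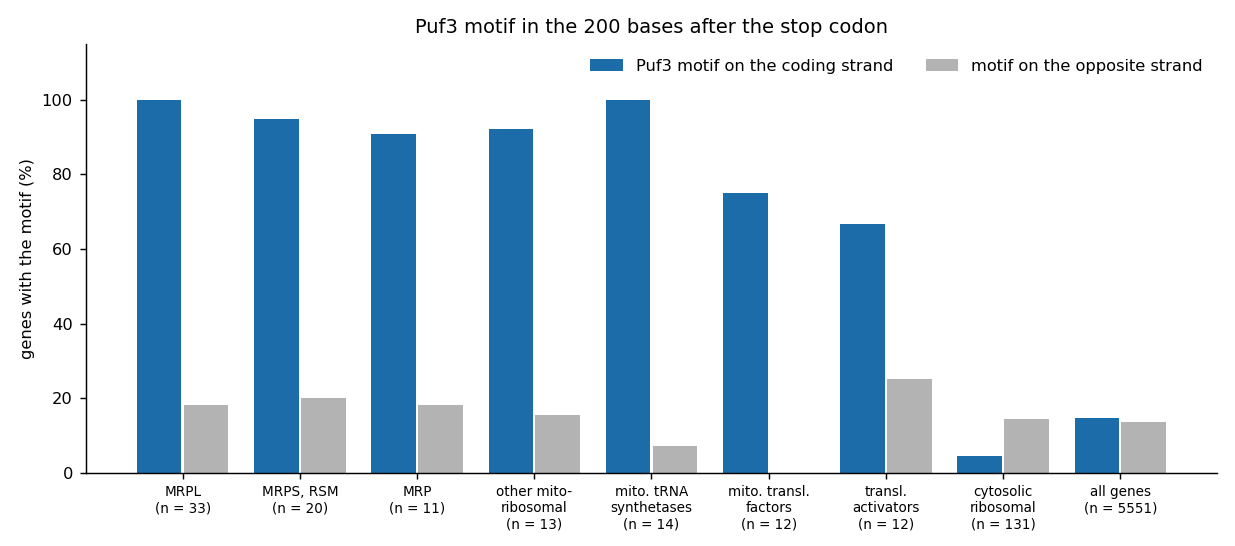
Share of genes (percent, vertical axis) with TGTANATA in the 200 bases after the stop codon, on the coding strand (blue) and the opposite strand (grey), for the mitochondrial ribosomal protein genes by name class and for other gene groups. The blue bars of the 3 name classes lie at 90.9% or above, the bar of all genes at 14.8% and that of the cytosolic ribosomal protein genes at 4.58%.

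Lists of other mitochondrial translation genes, compiled for comparison, were searched in the same way. The motif was found in 14 of 14 genes for mitochondrial aminoacyl-tRNA synthetases, the enzymes that charge tRNAs, and in 12 of 13 genes listed as mitoribosomal under other names (KGD4, once counted there, is now known as a dehydrogenase subunit). Among mitochondrial translation factors it was found in 9 of 12 (75%), and in 8 of 12 (66.7%) translational activators of single mitochondrial mRNAs. Among genes named as cytosolic ribosomal proteins it was found in 6 of 131 (4.58%). The count table repeats the names RPL21A, RPP1B, RPS24A and RPL42A for further genes. All of these were kept, so the list can hold other genes, here and below. A match of letters is a description of the window and was not tested for binding.

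The levels of the members spanned a wide range. Of the 64 genes, 63 passed the filter on low counts, and their mean levels over the 36 libraries had a median of 71.2 CPM (quartiles 45.4 and 111 CPM), against 62.3 CPM for all 5479 genes tested. MRPS16, the bacterial-type bS16 protein, was the most abundant at 662 CPM (467 to 973). It was followed by MRP7 (bL27) at 317 CPM, MRPL51 (mL43, of mitochondrial ribosomes only) at 237 CPM, MRPL37 at 226 CPM, MRPL27 at 187 CPM and MRPS18 (uS11) at 183 CPM. The libraries of MRPS16 lay above every library of MRPL51 (182 to 298 CPM). The median was 69.3 CPM for the MRPL genes and 71.2 CPM for the MRPS and RSM genes.

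At the low end, the small-subunit genes MRPS12 (uS12, a protein of the decoding centre) and MRPS8 averaged 21.6 and 23.1 CPM. The low values of several large-subunit genes are uncertain, because another gene lies over their 3′ end on the same strand and could take their reads. MRPL8, whose last 200 bases lie within DLS1, had 0 to 6 counts in any library and failed the filter. MRPL31, overlapped by HSK3, averaged 1.30 CPM with 0 to 29 counts. MRPL24 (9.79 CPM) and MRPL11 are overlapped by RPL36A and TRM8, and this holds for each value of these genes below. Part of the last 200 bases is overlapped in further genes of both subunits. These are MRPS17 (139 bases, by YMR187C), MRPS9 (137, RTC2), MRPL20 (58, HBS1), MRPS12 (48, ARC35), MRP21 (20, AVT5) and MRP20 (17, PDR15). Their values below carry the same uncertainty.

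Summed over the 64 genes, the mean TMM-scaled level was lower at both later times than in mid-log phase. The *gal80Δ* strain on fructose-palatinose had 6737 ± 139, 5142 ± 26.1 and 5372 ± 345 CPM in mid-log, +10h and +16h cells (SD, n = 3), and on fructose 6626 ± 316, 5296 ± 425 and 5325 ± 234 CPM. The wild-type had 7145 ± 303, 5688 ± 377 and 6158 ± 155 CPM on fructose-palatinose and 6922 ± 891, 5036 ± 436 and 5332 ± 332 CPM on fructose. In mid-log phase the TMM factors were 0.793 to 0.965, and later 0.979 to 1.19, so part of this drop depends on the scaling. As a share of all counts, which uses no such factor, the genes held between 0.558% and 0.623% in the means of the 12 groups, and the wild-type on fructose-palatinose then had a higher share at +16h (0.623%) than in mid-log phase (0.610%).

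The large-to-small ratio, the summed counts of the MRPL genes over those of the MRPS and RSM genes, stayed within 1.16 to 1.43 over the 36 libraries. It is given as a description with no test. In the order mid-log, +10h and +16h, the ratio was 1.31 ± 0.0829, 1.26 ± 0.0287 and 1.38 ± 0.0616 in the *gal80Δ* strain on fructose-palatinose and 1.34 ± 0.0638, 1.24 ± 0.0884 and 1.37 ± 0.0525 on fructose (SD, n = 3). In the wild-type it was 1.38 ± 0.0454, 1.32 ± 0.0526 and 1.34 ± 0.0736 on fructose-palatinose and 1.39 ± 0.00529, 1.33 ± 0.0880 and 1.22 ± 0.0251 on fructose. All 4 cultures had a lower mean ratio at +10h than in mid-log phase, with overlapping libraries in each. The lowest group was the wild-type on fructose at +16h (1.19 to 1.24), whose libraries lay below those of the same strain on fructose-palatinose (1.28 to 1.42) and of the *gal80Δ* strain on fructose (1.31 to 1.41) at that time.

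A single gene carried much of this ratio. MRPS16 gave between 27.7% (wild-type, fructose, mid-log) and 36.5% (wild-type, fructose, +16h) of the small-subunit counts. With MRPS16 and MRPL51, the highest gene of each subunit, left out, the group means lay between 1.72 and 1.85, and the wild-type on fructose at +16h had 1.75, against 1.78 on fructose-palatinose and 1.81 in the *gal80Δ* strain on fructose, so it was no longer set apart.

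**Figure D2:**
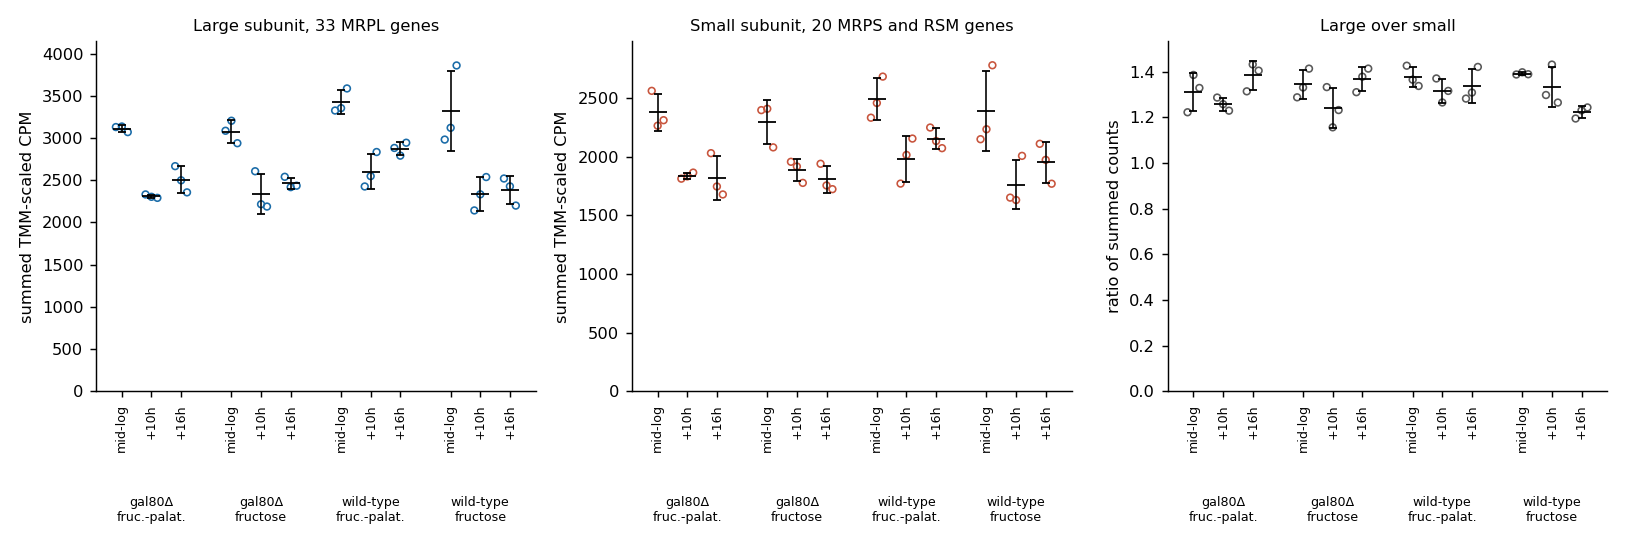
Summed TMM-scaled CPM of the 33 MRPL genes (left) and of the 20 MRPS and RSM genes (centre) and the ratio of their summed counts (right) in each library (points) of the 12 groups, with the mean and SD of 3 libraries as bars. The mean sums are lower at the later times in each culture, and the ratio stays between 1.16 and 1.43.

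From mid-log phase to +10h, many mitochondrial ribosomal protein genes fell in every culture. A gene is said to rise or fall where edgeR's quasi-likelihood test gave a Benjamini-Hochberg adjusted p below 0.05 over all 5479 genes and the log2 fold change exceeded 0.5 in size. In the *gal80Δ* strain on fructose-palatinose 28 of 63 genes fell and 0 rose (23.2% of all genes fell), and on fructose likewise 28 fell and 0 rose (23.7% of all genes fell). At an unadjusted p below 0.05 also 0 genes were higher at +10h in either of these cultures, and DESeq2 called 0 rises and 30 falls in each. In the wild-type on fructose-palatinose 23 fell and 2 rose (21.2% of all genes fell), and on fructose 32 fell and 1 rose (26% of all genes fell). The median log2 fold change of the 63 genes was -0.45, -0.46, -0.39 and -0.51 in the same order, against 0.05, 0.06, 0.02 and 0.02 over all genes tested. The 4 comparisons share no library.

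The background was high in this contrast, since 50.5%, 52.7%, 45.7% and 55.2% of all genes tested changed in either direction in these 4 cultures. In all 4 cultures 52 of the 63 genes had a negative log2 fold change, a count that was not made over all genes. Scaled by library size without TMM factors, all genes together shifted upwards by a median of 0.28 to 0.38, and 5, 6, 4 and 6 of the 63 genes fell in the same order. The members' median then was -0.15, -0.19, -0.13 and -0.15, about as far below that of all genes as with TMM. The fall is thus one relative to the other genes, and how total mRNA per cell differed between times was not measured.

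Of the 63 genes, 16 fell in all 4 cultures (25.4%), against 15.4% of all genes tested (846 of 5479). They were the large-subunit genes MRPL7, MRPL11, MRPL19, MRPL20, MRPL32, MRPL36, MRPL37, MRPL44, MRPL49 and MRPL50, and the small-subunit genes RSM7, RSM26, MRPS17, MRP1, MRP13 and MRP51. With 1 replicate letter or 1 of the 3 libraries named above left out, 12 of the 16 lost a call in at least 1 culture and 4 (RSM26, MRP13, MRPL20 and MRPL49) lost none. A further 23 genes fell in 1 to 3 cultures and 24 in none, so 61.9% fell at least once, against 31.9% of all genes tested (1748 of 5479). Of the MRPL genes 23 of 32 fell at least once, and of the MRPS and RSM genes 9 of 20. For the *gal80Δ* strain, 18 of 32 MRPL and 6 of 20 MRPS and RSM genes fell on fructose-palatinose (medians -0.56 and -0.36) and 16 and 7 on fructose (-0.49 and -0.44). In the wild-type 14 and 5 fell on fructose-palatinose (-0.46 and -0.38) and 20 and 6 on fructose (-0.53 and -0.40). The MRPL median was the lower one in each culture. Whether the subunits differed was not tested.

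RSM26 (mS42, a protein of the small subunit that resembles superoxide dismutases) fell in all 4 cultures, by most in the wild-type on fructose. There it had 49.2, 47.5 and 51.1 CPM at +10h, against 105, 95.5 and 119 CPM in mid-log phase, a log2 fold change of -1.11 (SE 0.13, adjusted p = 8.6e-09). On fructose-palatinose the wild-type had 60.8, 68.6 and 64.4 CPM at +10h, against 104, 101 and 112 CPM (-0.71, adjusted p = 2.3e-05). The *gal80Δ* strain had 51.5, 59.8 and 54.9 CPM at +10h on fructose-palatinose, against 86.7, 104 and 94.5 CPM (-0.78, adjusted p = 4.5e-06). On fructose the *gal80Δ* strain had 63.9, 45.2 and 53.9 CPM, against 90.1, 99.7 and 91.5 CPM in mid-log phase (-0.79, adjusted p = 3.8e-06). In each culture every +10h library lay below every mid-log library. At +16h the means were 53.8 and 53.2 CPM in the *gal80Δ* strain and 66.0 and 56.5 CPM in the wild-type, on fructose-palatinose and fructose.

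MRPL7 (uL5, which contacts the small subunit across the interface in bacterial ribosomes) fell by a like amount. In the *gal80Δ* strain it had 36.7, 38.0 and 38.1 CPM at +10h on fructose-palatinose, against 63.97, 73.6 and 66.1 CPM in mid-log phase, and 59.8, 35.03 and 39.7 CPM on fructose, against 67.7, 78.9 and 95.9 CPM. In the wild-type it had 56.8, 53.6 and 46.6 CPM at +10h on fructose-palatinose, against 93.4, 66.8 and 93.3 CPM, and 37.3, 54.4 and 43.8 CPM on fructose, against 80.0, 81.9 and 125.3 CPM. The libraries of the 2 times did not overlap in any of the cultures. The log2 fold changes were -0.85, -0.85, -0.69 and -1.08 in the same order (SE 0.19 each, adjusted p = 2.9e-04, 2.8e-04, 0.00249 and 1.0e-05). Without replicate C the wild-type fructose-palatinose value was -0.54 and no longer passed.

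MRP13 (mS44, found only in mitochondria) fell by more than 1 log2 unit in 3 cultures. On fructose-palatinose the *gal80Δ* strain had 50.2, 42.7 and 53.5 CPM at +10h, against 86.6, 73.6 and 83.7 CPM in mid-log phase, and 34.9, 43.1 and 38.2 CPM on fructose, against 101, 89.6 and 77.8 CPM. In the wild-type it had 55.3, 43.1 and 61.6 CPM on fructose-palatinose, against 114.8, 111 and 110.3 CPM, and 43.3, 51.8 and 57.1 CPM on fructose, against 93.1, 111 and 106 CPM. Again no +10h library reached a mid-log library of its culture. The log2 fold changes were -0.74, -1.21, -1.07 and -1.03 (SE 0.16 each, adjusted p = 2.2e-04, 1.9e-07, 1.7e-06 and 1.9e-06).

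**Figure D3:**
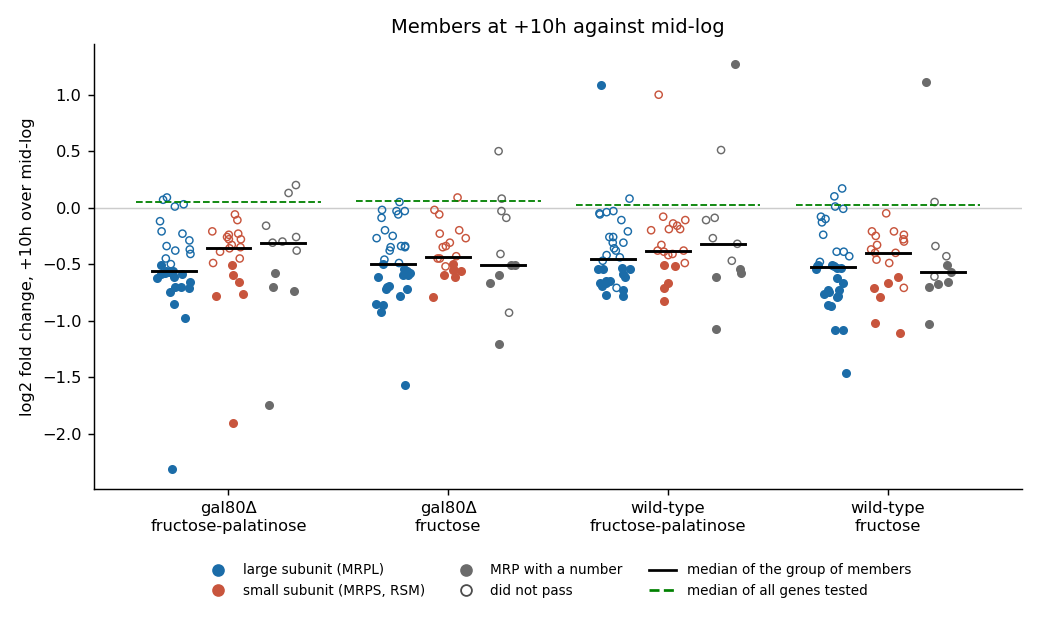
Log2 fold change from mid-log phase to +10h (vertical axis) for each of the 63 genes tested, by name class, in the 4 cultures, with genes that passed the test filled, the median of each class as a black line and that of all genes tested as a dashed green line. Most points lie below 0 in each culture, and the medians of the 63 genes run from -0.51 to -0.39.

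MRPS16 and MRPL51, the most abundant gene of either name class, were not among those that fell. MRPL51 had 234, 214 and 227 CPM at +10h in the *gal80Δ* strain on fructose-palatinose, against 268, 254 and 260.2 CPM in mid-log phase, and its log2 fold changes over the 4 cultures ran from -0.21 to -0.02. MRPS16 ran from -0.25 to -0.02. In the wild-type on fructose it had 485, 514 and 677 CPM at +10h, against 548, 607 and 843 CPM in mid-log phase, with overlapping libraries. Both carry the motif printed above. So do MRPL9, MRPL10, MRPL16, MRPL24, MRPL25, MRPL28, MRPL35 and MRP20 of the large subunit, which did not pass the test in any culture either. The same holds for RSM10, RSM18, RSM19, RSM23, RSM25, RSM27, RSM28, MRPS5, MRPS28, MRP17 and MRP21 of the small subunit. Several of these genes were still lower in all 4 cultures, as RSM18 (-0.49 to -0.33), RSM27 (-0.45 to -0.28) and MRPS28 (-0.43 to -0.21) were. Others had values of either sign, as MRPL16 (-0.06 to 0.17) and MRPL28 (-0.26 to 0.05) did.

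Some calls of this contrast rest on few libraries or few counts. MRPS12, named after its values were seen, had 14.8, 7.49 and 5.82 CPM at +10h in the *gal80Δ* strain on fructose-palatinose, against 15.9, 52.4 and 37.1 CPM in mid-log phase (-1.91, SE 0.72, adjusted p = 0.0228). MRPL40 (uL24) fell in the wild-type on fructose, with 83.2, 46.4 and 116 CPM at +10h against 195, 132 and 191 CPM in mid-log phase (-1.08, SE 0.34, adjusted p = 0.00725). Without mid-log A the value was -0.98 and without +10h B -0.83, and both passed. Its log2 fold change was -0.37 and -0.09 in the *gal80Δ* strain on fructose-palatinose and fructose and 0.08 in the wild-type on fructose-palatinose, none past the test. MRPL31, with 0 to 29 counts, had -2.31 and -1.57 in the *gal80Δ* strain on fructose-palatinose and fructose and -1.46 in the wild-type on fructose, all past the test. The last did not pass without replicate B or C, nor without wild-type fructose mid-log A (-1.37) or +10h B (-1.23) alone.

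MRP8 rose in the wild-type. It had 212, 192 and 132 CPM at +10h on fructose-palatinose, against 103, 80.9 and 38.1 CPM in mid-log phase (1.27, adjusted p = 0.00253), and 213, 54.9 and 179 CPM on fructose, against 114, 53.6 and 41.3 CPM (1.11, SE 0.34, adjusted p = 0.00618). The libraries overlapped on fructose and did not on fructose-palatinose. On fructose-palatinose the value was 0.96 without mid-log C, and on fructose it was 1.65 without mid-log A and 1.47 without +10h B, all past the test. Without replicate C the value on fructose was 0.68 and did not pass. For the *gal80Δ* strain it was 0.13 on fructose-palatinose and 0.50 on fructose, neither past the test. The other gene that rose, MRPL4 in the wild-type on fructose-palatinose, had 42.7, 47.3 and 28.7 CPM at +10h, against 25.6, 21.8 and 8.88 CPM (1.09, SE 0.33, adjusted p = 0.00712), and 0.74 with no call without mid-log replicate C. MRPL4 was named after its values were seen.

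**Figure D4:**
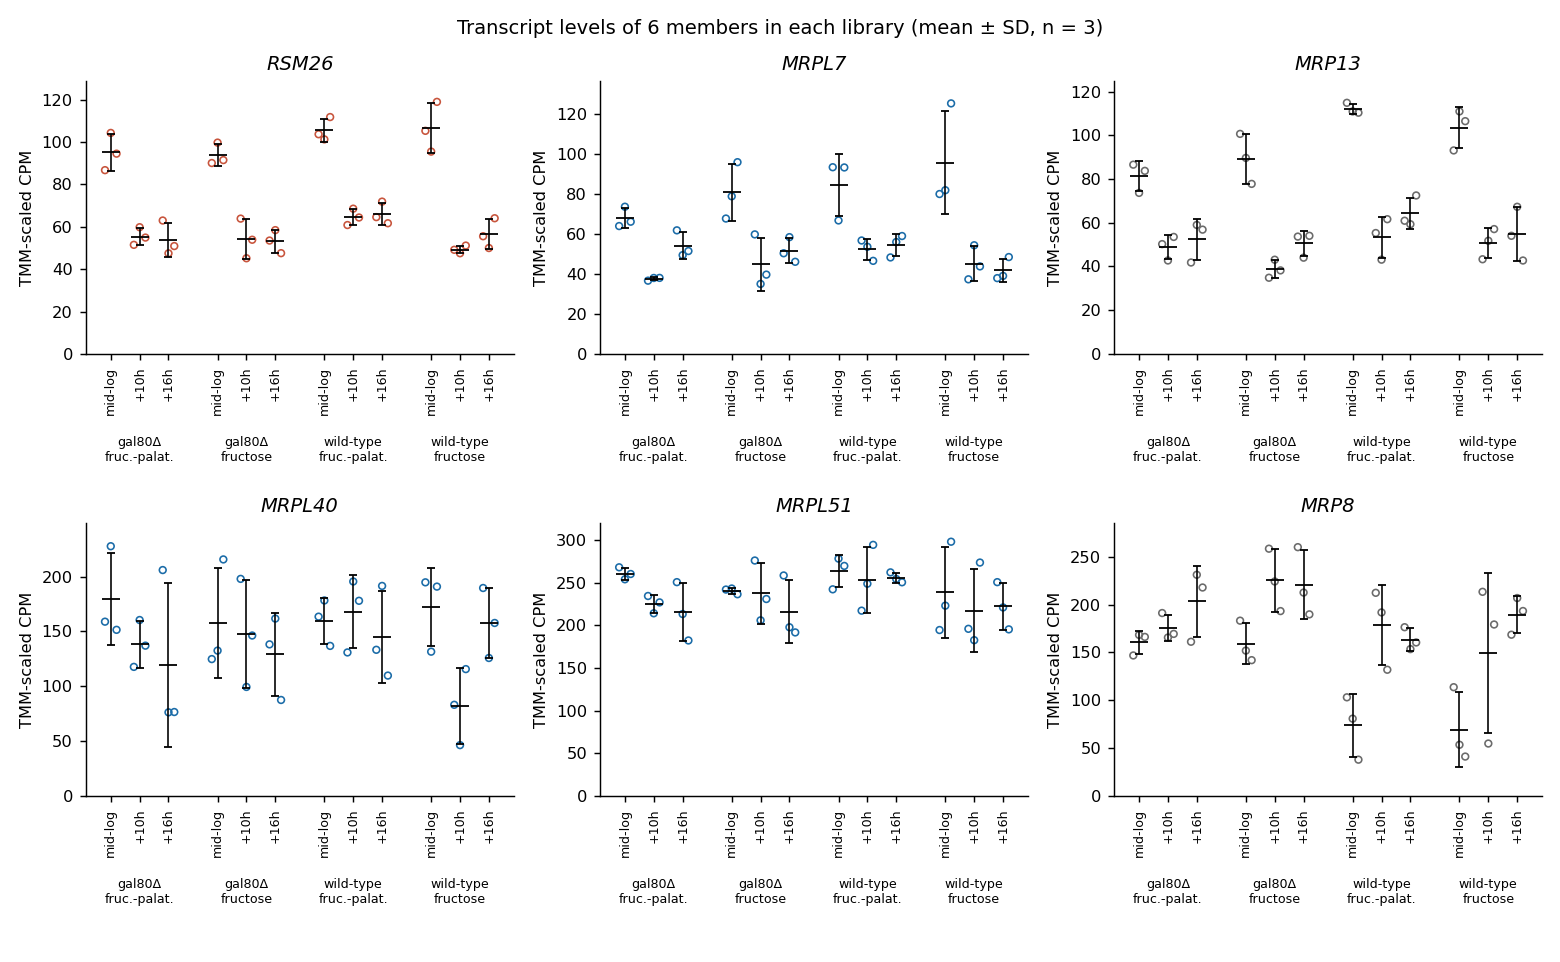
TMM-scaled CPM (vertical axis) of RSM26, MRPL7, MRP13, MRPL40, MRPL51 and MRP8 in each library (points) of the 12 groups, with the mean and SD of 3 libraries as bars. The mid-log libraries of RSM26, MRPL7 and MRP13 stand above the +10h libraries in each culture, MRPL40 has its lowest group mean at +10h in the wild-type on fructose, and MRP8 is lowest in mid-log wild-type cells.

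Genes named as cytosolic ribosomal proteins fell further over the same interval. Of 131, in the *gal80Δ* strain 126 fell on fructose-palatinose and 120 on fructose, with medians of -1.42 and -1.41, and in the wild-type 105 and 113, with medians of -0.97 and -1.24. The 13 genes listed as mitoribosomal under other names (KGD4 included) had medians of -0.44 and -0.43 in the *gal80Δ* strain (5 and 3 fell). In the wild-type their medians were -0.44 and -0.51 (4 and 7 fell). Only falls are counted here for this list. MNP1, a homologue of bacterial L7/L12, fell in all 4 cultures (-1.0, -1.10, -0.74 and -0.86). EHD3, of the same list and named after its values were seen, went the other way. In the wild-type on fructose it had 886, 1301 and 1243 unscaled counts at +10h, against 439, 467 and 619 in mid-log phase. In the *gal80Δ* strain on fructose-palatinose it had 835, 885 and 1027, against 746, 474 and 675. MRP10 and MRPL15, held in the table by systematic name, had 1 fall in 8 tests, that of MRP10 in the *gal80Δ* strain on fructose (-0.53, adjusted p = 0.00798).

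Other genes of mitochondrial translation had medians between -0.15 and 0.31. The 14 aminoacyl-tRNA synthetase genes had medians of -0.05 and 0.05 in the *gal80Δ* strain and -0.14 and -0.15 in the wild-type, with at most 2 rises and 1 fall in any culture. The 11 translation factors tested had medians of 0.11, 0.03, 0.20 and 0.19 in the same order, but TUF1, the mitochondrial elongation factor Tu, fell in each (-1.13, -1.27, -0.61 and -1.08). The 10 translational activators tested had medians of 0.21, 0.30, 0.31 and 0.30, with 4 rises in each culture. Of all genes tested, 50.5%, 52.7%, 45.7% and 55.2% rose or fell in the same order. Among the activators ATP22, needed for translation of the mitochondrial ATP6 mRNA, rose in each (0.85, 0.96, 0.92 and 1.04).

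For 2 regulators, the levels were read beside these changes. HAP4, the limiting subunit of the activator of respiratory genes, rose in all 4 cultures (1.44, 1.20, 1.53 and 1.53, adjusted p = 9.9e-09, 2.1e-07, 4.8e-09 and 2.5e-09). PUF3 had values of -0.19, -0.30, -0.05 and -0.13 that did not pass (adjusted p = 0.466, 0.225, 0.854 and 0.601), at 10.1 to 22.1 CPM. The 749 other genes tested that carry TGTANATA after the stop codon had median log2 fold changes of -0.03, -0.03, 0.00 and -0.05. The 61 members tested that carry it had -0.45, -0.49, -0.41 and -0.52. Over all genes, however, the letters occurred in 14.8% of windows on the sense strand and in 13.5% on the opposite strand. The C before the motif stood in 30.2% of all genes with the motif, against 80.6% of such members. A match alone thus does not mark a target of Puf3, and binding was not tested.

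Between +10h and +16h few of these genes passed the test. EdgeR called, in the *gal80Δ* strain, 0 of 63 on fructose-palatinose (15 at an unadjusted p below 0.05, 0 by DESeq2, 8.6% of all genes) and 0 on fructose (6 at an unadjusted p below 0.05, 1 by DESeq2, 9.27% of all genes). In the wild-type on fructose-palatinose it also called 0 (8 at an unadjusted p below 0.05, 0 by DESeq2, 1.59% of all genes). The members' medians were 0.15, 0.11 and 0.14. On fructose the wild-type had 1 rise and 1 fall (11.1% of all genes) and a median of 0.01.

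Those 2 genes, named after their values were seen, were MRPL17 (mL46) and RSM25. MRPL17 had 110.3, 86.2 and 72.4 CPM at +16h, against 64.3, 42.0 and 70.5 CPM at +10h (0.60, SE 0.15, adjusted p = 0.00831). RSM25 had 23.6, 28.5 and 26.0 CPM at +16h, against 37.1, 42.8 and 37.5 CPM at +10h (-0.59, SE 0.19, adjusted p = 0.0317). The libraries did not overlap for either gene, but both calls were lost without replicate A, without replicate B and in a fit of the groups compared alone. Without the +10h B library alone the values were 0.43 and -0.50, with no call.

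No mitochondrial ribosomal protein gene passed the test for palatinose in the *gal80Δ* strain. In fructose-palatinose against fructose edgeR called 0 of 63 in mid-log phase (0 at an unadjusted p below 0.05, 0.128% of all genes), 0 at +10h (2 at an unadjusted p below 0.05, 0.146% of all genes) and 0 at +16h (0 at an unadjusted p below 0.05, 0.128% of all genes), and DESeq2 called 0 at each time. The medians were -0.00, -0.02 and 0.01. The wild-type in mid-log phase likewise had 0 calls by edgeR and by DESeq2 (0 at an unadjusted p below 0.05, 0.128% of all genes) and a median of 0.01.

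In the wild-type at +16h, 4 of 63 genes were higher on fructose-palatinose and 0 lower (2.56% of all genes rose, 6.19% changed either way). MRPL13 (mL50) had 48.5, 46.2 and 62.3 CPM on fructose-palatinose, against 28.7, 36.5 and 33.4 CPM on fructose (0.67, SE 0.14, adjusted p = 0.00204). MRPL23 (uL13) had 74.7, 57.5 and 78.4 CPM, against 47.6, 48.1 and 36.6 CPM (0.67, SE 0.16, adjusted p = 0.00709). MRPS17 (uS17) had 34.4, 38.9 and 34.97 CPM, against 21.7, 29.6 and 18.6 CPM (0.63, SE 0.18, adjusted p = 0.023). The groups did not overlap for any of these, nor for MRPL20 (mL58), with 97.5, 87.1 and 113 CPM against 65.9, 82.6 and 55.6 CPM (0.54, SE 0.15, adjusted p = 0.0197). Without replicate A 1 gene was called and without replicate C 0.

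The shift at +16h was small and broad in the wild-type. The log2 fold change was above 0 in 57 of 63 genes, with a median of 0.30, against 2702 of 5479 genes and a median of 0.00 over all genes tested. The median was 0.37 for the MRPL genes and 0.27 for the MRPS and RSM genes. The summed level of the MRPL genes was 2872 ± 76.9 CPM (2791 to 2944) on fructose-palatinose, against 2382 ± 165 CPM (2200 to 2520) on fructose (SD, n = 3). Cytosolic ribosomal protein genes also had a median of 0.41 there, and 10 of 131 rose. The fructose-palatinose cultures were harvested at an optical density of 2.73 ± 0.115, against 1.95 ± 0.132 for fructose cultures (SD, n = 3), and the part of cell density in this shift was not tested.

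**Figure D5:**
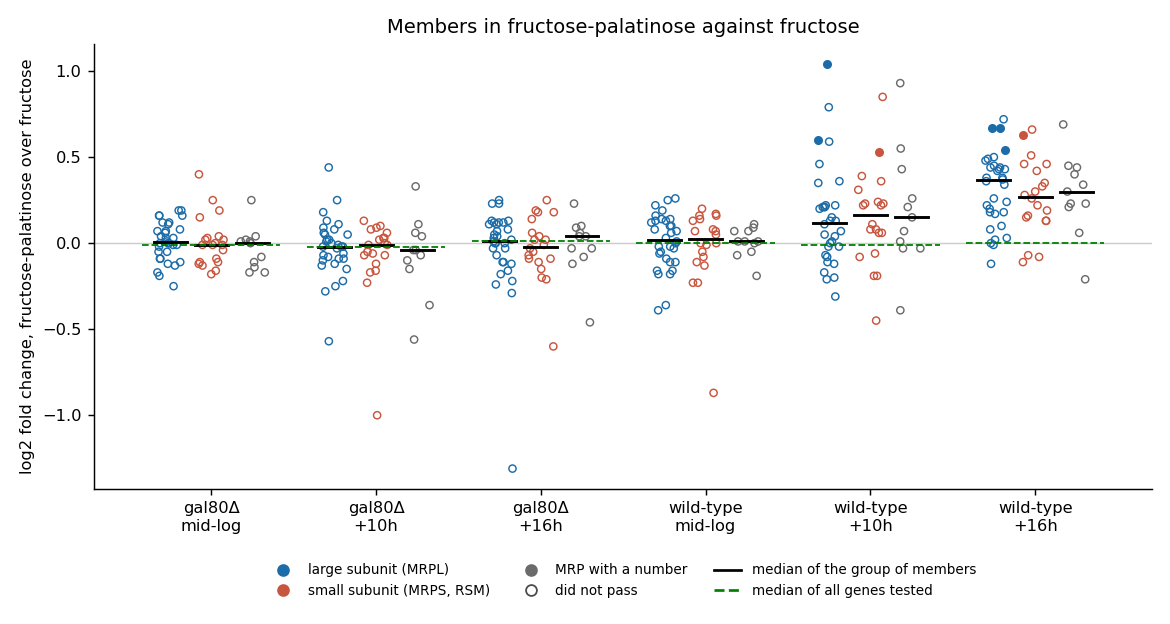
Log2 fold change of fructose-palatinose over fructose (vertical axis) for each of the 63 genes tested, by name class, strain and time, with genes that passed the test filled, the median of each class as a black line and that of all genes tested as a dashed green line. The points centre near 0 in the *gal80Δ* strain at each time and lie mostly above 0 in the wild-type at +16h, where the median is 0.30 and 4 genes passed.

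At +10h, 3 genes were higher in the wild-type on fructose-palatinose and 0 lower (5.38% of all genes rose, 11.6% changed either way), with a median of 0.13 over the 63. MRPL40 had 131, 195 and 178 CPM on fructose-palatinose, against 83.2, 46.4 and 116 CPM on fructose (1.04, SE 0.34, adjusted p = 0.0376). MRPL1 (uL1) had 72.4, 78.5 and 76.5 CPM, against 54.0, 30.7 and 64.9 CPM (0.60, SE 0.16, adjusted p = 0.00877), and MRPS18 rose by 0.53 (SE 0.16, adjusted p = 0.0245). In all 3, replicate B was the lowest of the fructose libraries. Without this library the values were 0.76, 0.35 and 0.39 and none passed. The count was also 0 without replicate A, without replicate B and in a fit of the compared groups alone. These fructose +10h libraries also enter the fall of MRPL40 over time above, so the values are not independent.

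The difference between strains in the response to palatinose was tested as an interaction. EdgeR called 0 of 63 in mid-log phase (0 at an unadjusted p below 0.05, 0 by DESeq2, 0% of all genes), 0 at +10h (5 at an unadjusted p below 0.05, 1 by DESeq2, 0.803% of all genes) and 0 at +16h (12 at an unadjusted p below 0.05, 1 by DESeq2, 1.53% of all genes). At +16h the median of *gal80Δ* minus wild-type was -0.27 over the 63 genes, with 55 below 0, and 0.01 over all genes. No member thus passed as responding differently in the strains.

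Few of the 63 genes passed the test between the strains. On fructose 1 of 63 was called in mid-log phase (7.15% of all genes), 0 at +10h (10 at an unadjusted p below 0.05, 0 by DESeq2, 7.5% of all genes) and 0 at +16h (6 at an unadjusted p below 0.05, 0 by DESeq2, 5.97% of all genes). On fructose-palatinose 1 was called in mid-log phase (8.01% of all genes), 1 at +10h (14.3% of all genes) and 3 at +16h (12.8% of all genes). Over the 63 genes the median log2 fold change of *gal80Δ* over wild-type was -0.09, -0.05 and 0.09 on fructose and -0.15, -0.16 and -0.20 on fructose-palatinose in mid-log, +10h and +16h cells.

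The mid-log gene was MRP8 in both media. It had 147, 168 and 166 CPM in the *gal80Δ* strain on fructose-palatinose, against 103, 80.9 and 38.1 CPM in the wild-type (1.12, SE 0.34, adjusted p = 0.0346). On fructose it had 183, 152 and 142 CPM, against 114, 53.6 and 41.3 CPM (1.20, SE 0.34, adjusted p = 0.027). The strains did not overlap in either medium. Both calls were lost without replicate B, without replicate C and in a fit of the groups compared alone, with values of 0.78 to 1.17. Without the wild-type fructose-palatinose C library alone the first was 0.80 with no call, and without the wild-type fructose A library alone the second was 1.75 and passed. The same wild-type mid-log libraries enter the rise of MRP8 over time above, so the values are not independent.

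On fructose-palatinose at +16h, 3 genes were lower in the *gal80Δ* strain (7.26% of all genes fell). MRPS17 had 22.7, 20.99 and 28.3 CPM in the *gal80Δ* strain, against 34.4, 38.9 and 34.97 CPM in the wild-type (-0.59, SE 0.18, adjusted p = 0.0195). MRPL17 had 63.9, 60.8 and 61.0 CPM, against 98.3, 89.0 and 82.1 CPM (-0.54, SE 0.15, adjusted p = 0.0158), and MRPL11 (uL10, of the stalk base) had 28, 29.9 and 27.5 CPM, against 36.5, 41.5 and 43.3 CPM (-0.51, SE 0.18, adjusted p = 0.0485). The strains did not overlap for any of the 3. Of the 63 genes 57 had a negative value, and the median over all genes tested was 0.02. The count was 0 with library size alone, without replicate A and without replicate B. These wild-type libraries are those of the palatinose comparison above, so MRPS17 in the 2 comparisons rests on shared samples.

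The single gene at +10h on fructose-palatinose, MRP2 (uS14), had 28.4, 22.1 and 23.1 CPM in the *gal80Δ* strain, against 91.0, 92.9 and 35.01 CPM in the wild-type (-1.57, SE 0.53, adjusted p = 0.0365). It was named after its values were seen. With the replicate letter as a block, 2 genes were called in this comparison, and without replicate A or B the call of MRP2 was lost (-1.5 and -1.29). MRP2 also fell in the *gal80Δ* strain on fructose-palatinose over time (-1.75, SE 0.53, adjusted p = 0.00554), which uses the same +10h libraries.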

How the data were processed

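Gene counts were deposited by the authors for 36 libraries of a 3′ kit (QuantSeq 3′ REV). The submitters' processing notes name FastQC 0.11.9, cutadapt 1.18, HISAT2 2.1.0, SAMtools 1.11, bedtools 2.30.0, Subread 2.0.0 with featureCounts, MultiQC 1.13 and genome build R64. The deposited table also holds 1 normalized column per sample, which was not used. The optical density at harvest was deposited by the authors for each library.

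Counts were tested in edgeR 4.0.16 (R 4.3.3) with TMM scaling, a filter on low counts that kept 5479 of 5697 genes, and 1 quasi-likelihood fit with a term for each of the 12 groups, with Benjamini-Hochberg adjustment over all genes tested. A call needed an adjusted p below 0.05 and a log2 fold change above 0.5 in size. DESeq2 1.42.0, library size alone, other filters, a fit of the compared groups alone, no minimum fold, a replicate block and leaving out replicates were tried as alternatives. The fit was tested on simulated data. Levels are CPM, the counts per 1000000 counts of a library after TMM scaling. A count of 3, the limit for a gene at 0, equals 0.255 to 0.498 counts per 1000000 before TMM scaling. Such limits cover counting error only.

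The members and lists were chosen with earlier results of these data known. Named genes were up to 4 per direction with the largest change among those called in the contrast with most calls of each family, those called in most contrasts, and the highest and lowest genes. Others are said to be named after their values were seen. Replicate letters paired the samples (correlation of deviations above 0.1 in every pair) in 3 of 20 contrasts, namely *gal80Δ* against wild-type on fructose-palatinose at +10h, palatinose in mid-log wild-type, and +10h against mid-log in wild-type on fructose-palatinose. The p-values rest on the spread between biological replicates, estimated in 1 fit over all 12 groups. That fit held no pairing, so the p-values of these 3 contrasts leave it out. Motifs were searched in the R64 genome with RefSeq gene models, 1-based.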

Additional observations from a re-analysis of the deposited data

How the results depend on the processing

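With library size alone the calls from mid-log phase to +10h were 5 (*gal80Δ*, fructose-palatinose), 7 (*gal80Δ*, fructose), 6 (wild-type, fructose-palatinose) and 8 (wild-type, fructose), against 28, 28, 25 and 33, and in wild-type at +16h the palatinose calls were 2 and the strain calls on fructose-palatinose 0. Over single replicates left out these 4 counts stayed between 20 and 36. The smaller counts were less stable. From +10h to +16h in wild-type on fructose, 2 calls became 4 with DESeq2, 5 with library size alone, 0 with only the groups compared, 5 with no fold minimum and 0 to 4 without a replicate. In the *gal80Δ* strain on fructose 0 became 1 with DESeq2, 2 with no filter, 2 with no fold minimum and 0 to 2 without a replicate, and on fructose-palatinose 2 with only the groups compared and 0 to 2 without a replicate. Palatinose calls in wild-type were 0 (only the groups compared), 5 (no fold minimum) and 0 to 4 (without a replicate) at +10h, and 12 (no fold minimum) and 0 to 5 (without a replicate) at +16h. The interaction had 1 call by DESeq2 at +10h and 1 at +16h. Strain calls in mid-log phase were 0 with only the groups compared and 0 to 1 without a replicate, on either medium. On fructose at +10h there was 1 with no fold minimum. On fructose-palatinose they were 2 (DESeq2), 3 (only the groups compared), 2 (replicate block), 5 (no fold minimum) and 0 to 2 (without a replicate) at +10h, and 5 (only the groups compared), 5 (no fold minimum) and 0 to 3 (without a replicate) at +16h. The replicate block changed no other count by over 1.5 times. Libraries left out singly for standing apart were chosen after seeing the data.

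The large-to-small ratio, with MRP genes added to their subunit, was 1.19, 1.21 and 1.26 in the *gal80Δ* strain on fructose-palatinose at the 3 times, 1.21, 1.20 and 1.24 on fructose, 1.23, 1.22 and 1.21 in wild-type on fructose-palatinose and 1.24, 1.23 and 1.16 on fructose. Without MRPL51 and MRPS16 it was 1.77, 1.77 and 1.85, then 1.75, 1.72 and 1.81, then 1.81, 1.77 and 1.78, and last 1.79, 1.77 and 1.75. Of 350 single-gene values under alternatives, 270 kept their call, 80 lost it and 0 changed sign, and the cause was not tested. Depth limits MRPL8 and MRPL31, with at most 6 and 29 counts in a library.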

Other observations

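A few genes varied far more between replicates of a group than the rest. In wild-type mid-log cells on fructose, MRP2 had 125.5, 29.4 and 22.1 CPM, MRPS12 58.3, 8.49 and 4.72 CPM, MRPL4 41.2, 15.8 and 17.1 CPM and MRP8 114, 53.6 and 41.3 CPM in replicates A, B and C. In each, replicate A was the highest. In wild-type mid-log cells on fructose-palatinose replicate C was low for the same genes, at 19.2 CPM for MRP2, 5.03 CPM for MRPS12, 8.88 CPM for MRPL4 and 38.1 CPM for MRP8. In wild-type fructose +10h cells replicate B was low, at 12.8 CPM for MRP2, 3.06 CPM for MRPS12 and 54.9 CPM for MRP8. These are the libraries with the largest deviation from their group over all genes.

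Split by family, the 39 tested genes that descend from bacterial ribosomal proteins and the 21 found only in mitochondria both had negative medians from mid-log phase to +10h in each culture. In the *gal80Δ* strain 19 and 9 fell on fructose-palatinose (medians -0.49 and -0.45) and 16 and 12 on fructose (-0.43 and -0.51). In the wild-type 14 and 9 fell on fructose-palatinose (-0.38 and -0.42) and 19 and 13 on fructose (-0.51 and -0.57). MRP8, RSM22 and RSM28 were assigned no family and are in neither set.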
